A study of Mus musculus with 20 samples.

Results

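The response of mouse spinal cord to dexamethasone (Dex), a synthetic glucocorticoid, was described in control mice across 22180 genes and their pathways. It rested on 10 of the 20 arrays of the study: the 5 arrays of control mice given Dex and the 5 of control mice given saline, taken by their titles. The control mice, titled wt and of the C57BL/6J strain, were 6 to 10 weeks old. They received an intraperitoneal injection of 4 mg/kg Dex or of saline, and the cord was taken after 4 h, with 5 mice in each group. The other 10 arrays came from Cx30GRko mice, titled Tg, under the same 2 treatments. There, Cre recombinase deletes the glucocorticoid receptor gene where connexin 30, a gap junction protein of astrocytes, is active. Whether the control mice carried unrecombined receptor alleles was not given in the sources used here. Values are log2 signals of probe sets, the groups of short probes on the array that report 1 transcript each, so a difference of 1 is a doubling of the signal.

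Glucocorticoids cross cell membranes and bind the glucocorticoid receptor (encoded by Nr3c1), which then leaves its chaperones, enters the nucleus and binds DNA as a dimer at palindromes of the half-site AGAACA. Genes induced within hours in many tissues include feedback and anti-inflammatory factors (Fkbp5, Tsc22d3, Nfkbia, Dusp1), kinases (Sgk1), transcription factors (Klf9, Per1, Zbtb16) and genes of lipid and glucose use (Pnpla2, Plin4, Pdk4). In the nervous system astrocytes, oligodendrocytes, neurons, microglia and vessel cells all carry the receptor, and the arrays measured the whole cord without separating them.

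The promoters of the genes on the list of known glucocorticoid-induced genes were searched for that palindrome on both strands, in RefSeq windows from 250 bases before to 50 bases after each annotated start (GRCm38.p6). The perfect palindrome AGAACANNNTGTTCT lay in 3 of 32851 windows (0.00913%), and 1 of the 3 belonged to Sgk1. The 250 bases before the Sgk1 start, chr10:21993640-21993889 on the plus strand, are shown because this gene carried the complete site. Capitals mark the palindrome, which lies 189 to 175 bases before the start.
Sgk1: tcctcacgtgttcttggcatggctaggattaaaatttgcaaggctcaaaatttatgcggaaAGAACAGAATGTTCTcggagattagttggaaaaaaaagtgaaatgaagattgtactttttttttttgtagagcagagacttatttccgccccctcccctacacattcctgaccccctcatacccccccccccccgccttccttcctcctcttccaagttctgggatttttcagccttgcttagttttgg

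The looser core GNACANNNTGTNC, which the perfect palindrome also satisfies, lay in 156 of the 32851 windows (0.475%). Among the 36 genes of the list, 32 had 46 windows between them, and 6 of those windows (13%) held the core. They belonged to 5 genes: Fam107a, Map3k6, Mt1, Sgk1 and Txnip. The 41 bases around the core are shown for the other 4, so that the departures from the palindrome can be read, with the core in capitals. Their positions are chr14:8309871-8309911 on the minus strand for Fam107a, chr4:133240623-133240663 on the plus strand for Map3k6, chr8:94178981-94179021 on the plus strand for Mt1 and chr3:96557771-96557811 on the plus strand for Txnip.
Fam107a: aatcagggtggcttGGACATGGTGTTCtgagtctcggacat
Map3k6: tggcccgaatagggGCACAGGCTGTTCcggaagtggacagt
Mt1: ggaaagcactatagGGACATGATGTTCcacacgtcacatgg
Txnip: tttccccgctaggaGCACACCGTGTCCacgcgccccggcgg
The half-site alone (AGAACA, or TGTTCT on the other strand) was common, in 6233 windows (19%) overall and in 9 of the 46 list windows (19.6%). Of the 3 genes called below, Sgk3 had 0 windows in the table, and neither Cdkn1a nor Pnpla2 held the half-site in its windows (2 and 1). These matches describe letters in short windows and say nothing of binding, which the arrays did not measure.

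The arrays fell into 2 sets, the 12 arrays of replicates 1 to 3 and the 8 of replicates 4 and 5, because every probe set had the same mean over each (largest difference 4.5e-09). The labels do not name these sets, and the array set was a block in the reported fits over all arrays. Residual spread differed between them, with a median SD of 0.212 in the first set (replicates 1 to 3) and 0.373 in the second. Marker genes fitted the labelled tissue at the coarse level that different probe sets allow: 20 of 20 astrocyte, 14 of 14 oligodendrocyte and 19 of 20 neuron markers, and 14 of 15 Hox genes of cord level, lay above the median level of all genes. No forebrain gene (0 of 6) did so. The Cx30GRko Dex arrays 4 and 5, which enter the shared estimate of spread, had wider values (SDs across probe sets of 1.95 and 1.81) than the control arrays (1.66 to 1.71).

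Across the 22180 genes 3 passed an adjusted p of 0.05 (0.0135%), and all 3 were higher after Dex: Sgk3, Cdkn1a and Pnpla2. None was lower (0%). At an unadjusted p under 0.05 there were 547 higher genes (2.47%) and 451 lower ones (2.03%), together 998 (4.50%). Arrays of the groups did not overlap for 174 genes that were higher after Dex (0.784%) and for 100 that were lower (0.451%). The median difference over all genes was 0.01. Brighter and dimmer genes had much the same share of small p-values, 4.64% of the 12573 genes above the median probe set and 4.32% of the 9607 others.

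Sgk3 encodes a kinase of the serum- and glucocorticoid-regulated family that is recruited to endosomes and acts beside Akt downstream of PI3 kinase. Its probe set (17211043) read 5.79, 5.83, 5.94, 6.09 and 5.56 in saline arrays 1 to 5 and 7.21, 7.16, 7.43, 7.39 and 6.67 in Dex arrays 1 to 5. Every Dex array was above every saline array. Sgk3 rose by 1.33 ± 0.195 (SE, n = 5 a group; 2.51-fold; limma adjusted p = 0.022). The first array set gave 1.41 and the second 1.20.

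Cdkn1a encodes p21, an inhibitor of cyclin-dependent kinases that halts the cell cycle and is induced by p53 as well as by glucocorticoids. Saline arrays 1 to 5 read 6.67, 7.21, 7.30, 5.60 and 6.62 (probe set 17335467), and Dex arrays 8.29, 8.15, 8.22, 8.66 and 8.69. The groups did not overlap, and the spread lay in the saline group, whose SD was 0.68 against 0.26 after Dex. Cdkn1a rose by 1.72 ± 0.277 (SE, n = 5 a group; 3.29-fold; limma adjusted p = 0.0396). The first set gave 1.16 and the second 2.57, where saline array 4 was the lowest of all 10.

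Pnpla2 encodes adipose triglyceride lipase, the enzyme that starts the breakdown of stored triglyceride in lipid droplets. Probe set 17484909 read 5.77, 5.84, 5.84, 5.78 and 6.06 in saline arrays 1 to 5 and 6.73, 6.92, 6.78, 6.81 and 6.53 in Dex arrays 1 to 5. These are narrow groups with a gap between them. Pnpla2 rose by 0.90 ± 0.148 (SE, n = 5 a group; 1.86-fold; limma adjusted p = 0.0396), by 1.00 in the first set and 0.75 in the second.

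The sizes of these 3 differences moved less than their calls. When 1 control array was left out at a time, Sgk3 ran from 1.25 to 1.47 (adjusted p from 0.00557 to 0.11, above 0.05 in 6 of 10), Cdkn1a from 1.42 to 1.88 (0.0373 to 0.138, above in 9) and Pnpla2 from 0.85 to 0.96 (0.0394 to 0.236, above in 8). Sgk3 alone kept its call without saline array 4, and Sgk3 and Cdkn1a kept theirs without saline array 3. Without saline array 5 or Dex array 5 the calls of Sgk3 and Pnpla2 stood, beside Fbxo32 and Slc25a13 respectively. Mup3, a major urinary protein gene, was the single call without saline array 1, and leaving out any of the remaining 5 control arrays gave 0 calls. With array quality weights, which give less weight to the noisier arrays, 59 genes were called, 46 of them higher, and with the replicate number as a block 0 were called (926 at an unadjusted p under 0.05), at adjusted p-values of 0.0805 for Sgk3 and Cdkn1a and 0.173 for Pnpla2. From the 10 control arrays alone 0 were called, with 1282 genes at an unadjusted p under 0.05.

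**Figure D1:**
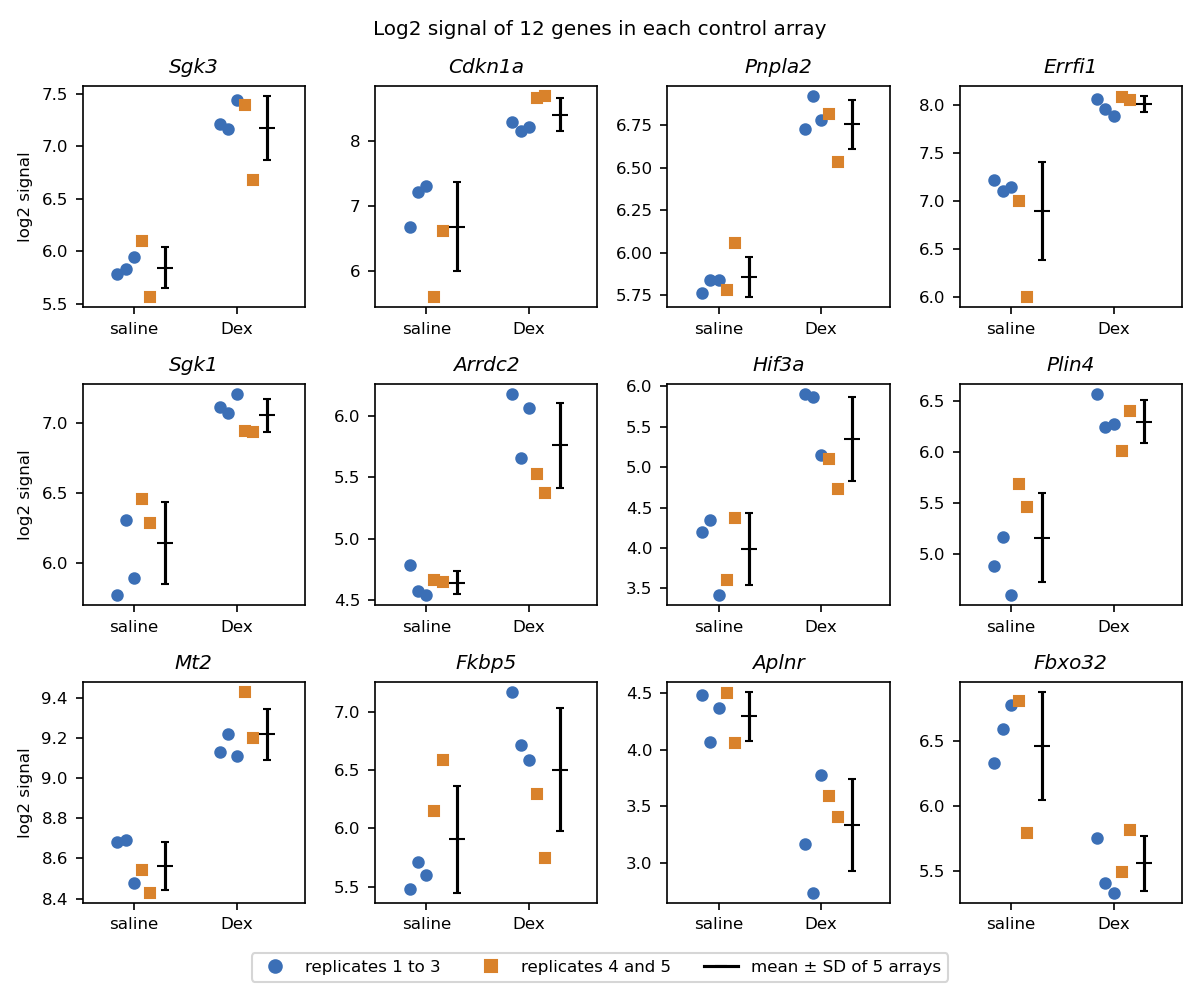
Log2 signal (vertical axis) of 12 genes in the 5 saline and 5 Dex arrays of control mice; blue circles are replicates 1 to 3, orange squares replicates 4 and 5, and bars the mean ± SD of 5 arrays. Sgk3, Cdkn1a and Pnpla2, the 3 genes that passed the test, show no overlap between groups, while Fkbp5 separates in replicates 1 to 3 (a difference of 1.23) and not in replicates 4 and 5.

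The list of 36 known glucocorticoid-induced genes, all of them measured, stood higher as a group. Its members were chosen with earlier results of these data known, so the shares below are not independent of that choice. The median difference was 0.44, against 0.01 over all genes, and 33 of the 36 estimates were above 0, against 52.3% of all genes. Both Cdkn1a and Pnpla2 were called (2 of 36). At an unadjusted p under 0.05, 18 members (50%) were higher, against 2.47% of all genes, and 1, Anxa1, was lower. The arrays of 10 higher members did not overlap between groups, against 0.784% of all genes, and 17 members were above the saline mean of their own set in all 5 Dex arrays, which held for 7.13% of all genes. Anxa1 was the 1 member below that mean in all 5, against 6.21% of all genes. Leaving out single control arrays left 15 to 21 higher members.

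Sgk1, the founding member of the kinase family, regulates ion channels and transporters and is a direct target of the receptor. It carries the promoter palindrome shown above. Saline arrays 1 to 5 read 5.77, 6.30, 5.89, 6.45 and 6.28, and Dex arrays 7.11, 7.07, 7.21, 6.94 and 6.93. The groups did not overlap, with a difference of 0.91 ± 0.195 that was not significant (adjusted p = 0.193). The other 8 measured members of the kinase list, which holds Sgk2 and substrates and partners of these kinases, reached no unadjusted p under 0.05.

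Feedback and anti-inflammatory genes are described one by one. Fkbp5 encodes a co-chaperone that lowers the affinity of the receptor for its ligand. It read 5.48, 5.71, 5.60, 6.15 and 6.58 in saline arrays 1 to 5 and 7.17, 6.72, 6.59, 6.29 and 5.75 in Dex arrays. In replicates 1 to 3 all Dex values were above all saline values (1.23 ± 0.167, adjusted p = 0.013 within that set), whereas in replicates 4 and 5 Dex array 5 was the lowest of the 4. Over both sets the difference was 0.60 ± 0.258 and not significant (adjusted p = 1.00).

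Nfkbia encodes IκBα, which holds NF-κB in the cytoplasm. Its saline arrays lay between 5.59 and 5.87 and its Dex arrays between 6.06 and 6.88, without overlap (0.70 ± 0.263, adjusted p = 1.00). Zfp36 encodes tristetraprolin, which speeds the decay of cytokine mRNAs, and its Dex arrays 1 to 3 (4.89, 4.83 and 4.63) stood above saline arrays 1 to 3 (2.54, 2.99 and 3.51). In the second set the Dex values of 3.86 and 3.63 overlapped the saline values of 3.71 and 3.32. Over all arrays the Zfp36 difference was 1.15 ± 0.255 (adjusted p = 0.208).

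Tsc22d3, which encodes the leucine zipper protein GILZ, differed by 0.24 ± 0.14 and Dusp1, a phosphatase of MAP kinases, by 0.35 ± 0.242. Both had overlapping arrays. Anxa1, a phospholipid-binding protein that mediates anti-inflammatory actions of glucocorticoids, stood on the other side at -0.77 ± 0.277 (unadjusted p = 0.0111), with saline arrays from 4.31 to 5.96 and Dex arrays from 3.47 to 4.44. Of the 15 NF-κB inhibitors and mRNA decay factors, 2 were higher at an unadjusted p under 0.05 (13.3%, against 2.47% of all genes). At that level 1 was lower (6.67%, against 2.03%), and the median was -0.02. Receptor machinery (15 genes, co-chaperones and coactivators) had a median of 0.07 with Fkbp5 alone past that level, and Nr3c1 itself differed by 0.01 ± 0.268.

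Transcription factors showed no shared direction. Zbtb16, a zinc finger repressor that responds to glucocorticoids in many tissues, lay between 5.58 and 7.23 under saline and between 6.92 and 7.47 under Dex, a difference of 0.97 ± 0.261 (adjusted p = 0.611). Cebpd was 0.49 ± 0.182 and Bcl6 0.63 ± 0.235, both with unadjusted p-values under 0.05 only. Klf9, a Krüppel-like factor of the stress response, differed by 0.39 ± 0.245. Among the 19 Krüppel-like and bHLH factors 3 were higher (15.8%, against 2.47% of all genes) and 2 lower (10.5%, against 2.03%) at that level. The 3 higher ones are also on the glucocorticoid-induced list. Of the 19 measured clock genes 0 reached it, and Per1, the member closest to the receptor, differed by 0.31 ± 0.201. Immediate early genes (19) had 1 (5.26%, against 2.47% of all genes), Atf3, higher at 0.48 ± 0.196, beside 14 estimates below 0.

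Growth arrest genes held the highest estimate of all 22180 genes, that of Cdkn1a. Ccng1, which encodes cyclin G1, a p53 target, had no overlap: saline arrays 1 to 5 read 7.19, 7.20, 7.28, 5.48 and 6.23 and Dex arrays 8.33, 8.23, 8.17, 8.80 and 8.28. As for Cdkn1a, saline arrays 4 and 5 were the lowest. The Ccng1 difference of 1.69 ± 0.371 (adjusted p = 0.208) was 1.02 in the first set and 2.69 in the second. Gadd45g, a stress gene that acts on p38 signalling, differed by 1.12 ± 0.26 (adjusted p = 0.307), most of it in replicates 1 to 3 (1.60 against 0.39). Of 19 growth arrest and p53 target genes 4 were higher at an unadjusted p under 0.05 (21.1%, against 2.47% of all genes). At that level 0 were lower (2.03%), and the median was 0.16. All of these 4 but Ccng1 are also on the glucocorticoid-induced list, so this share is not separate from that list. None of the 25 cell cycle and DNA replication genes reached that level in either direction, with a median of -0.03.

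The list of lipid droplet and fatty acid oxidation genes, which holds Pnpla2, had 20 of 30 estimates above 0 and 10 below. Plin4, a perilipin that coats lipid droplets, read 4.89, 5.17, 4.61, 5.68 and 5.46 in saline arrays 1 to 5 and 6.57, 6.24, 6.27, 6.01 and 6.39 in Dex arrays, without overlap. Its difference was 1.13 ± 0.268 (adjusted p = 0.333). Ppard, a nuclear receptor that drives fatty acid oxidation, differed by 0.52 ± 0.156 (adjusted p = 0.776). Pnpla2 included, 8 members were higher at an unadjusted p under 0.05 (26.7%, against 2.47% of all genes) and 0 were lower (2.03%). Pnpla2 and Plin4 are also on the glucocorticoid-induced list. The arrays of 4 higher members (0.784% of all genes) and of 1 lower member (0.451%) did not overlap. Pdk4, which directs the cell from glucose to fat, differed by 0.24 ± 0.2.

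Sterol genes lay on both sides. Abca1, the exporter of cholesterol to apolipoproteins, had saline arrays from 5.32 to 5.92 and Dex arrays from 6.24 to 6.56 (0.75 ± 0.173, adjusted p = 0.294). In the same list of 21 sterol and fatty acid synthesis genes Srebf2, the master regulator of cholesterol synthesis, stood at -0.57 ± 0.235 and Mvd, an enzyme of the mevalonate pathway, at -0.56 ± 0.24, both not significant.

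Carriers and glucose genes included Slc25a13, the aspartate-glutamate carrier citrin of the malate-aspartate shuttle. It read 4.56, 4.41, 4.73, 4.78 and 4.92 in saline arrays 1 to 5 and 6.00, 6.14, 6.25, 6.03 and 5.06 in Dex arrays, with Dex array 5 barely above the saline group (1.22 ± 0.236, adjusted p = 0.131). Slc25a22, a mitochondrial glutamate carrier, had no overlap but a wide spread (0.73 ± 0.339). Ppp1r3c, which targets a phosphatase to glycogen, differed by 0.60 ± 0.192 and Slc2a1, the glucose transporter of the barrier and of astrocytes, by 0.56 ± 0.203. Each passed an adjusted p of 0.05 within replicates 1 to 3 alone (0.0178 and 0.0382). Of the 25 glucose, glycogen and lactate genes 2 were higher at an unadjusted p under 0.05 (8%, against 2.47% of all genes). At that level 0 were lower (2.03% of all genes). Mfsd2a, the lipid transporter of barrier endothelium, differed by 0.62 ± 0.244, while the 19 barrier genes had a median of -0.03.

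Metallothioneins, small proteins that bind zinc and copper, had narrow groups. Mt2 read 8.68, 8.69, 8.48, 8.54 and 8.43 in saline arrays 1 to 5 and 9.13, 9.22, 9.11, 9.43 and 9.20 in Dex arrays. Mt1, which holds a promoter core, lay between 7.41 and 7.80 under saline and between 7.92 and 8.25 under Dex. Neither group overlapped, with differences of 0.65 ± 0.166 for Mt2 (adjusted p = 0.439) and 0.44 ± 0.139 for Mt1 (adjusted p = 0.82). Probes of these near-identical genes can share signal, so the pair may not be separate measurements. Both genes are also on the glucocorticoid-induced list. Of 8 metallothionein and zinc transporter genes, 2, Mt1 and Mt2 themselves, were higher at an unadjusted p under 0.05 (25%, against 2.47% of all genes), and 3 higher members did not overlap (0.784% of all genes).

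Errfi1 (Mig6), which inhibits the EGF receptor and its relatives, had the smallest p-value after the 3 called genes. It read 7.22, 7.11, 7.15, 7.00 and 5.99 in saline arrays 1 to 5 and 8.07, 7.95, 7.88, 8.08 and 8.05 in Dex arrays (1.12 ± 0.212, adjusted p = 0.131). Saline array 5 stood far below its group. Within replicates 1 to 3, Errfi1 passed at 0.81 ± 0.1 (adjusted p = 0.00976). The 24 ErbB and MAP kinase feedback genes held 1 more at an unadjusted p under 0.05, Dusp10, on the lower side (-0.49 ± 0.213). Errfi1 and Dusp10 were each 4.17% of the list, against 2.47% of all genes higher and 2.03% lower.

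Arrdc2, an α-arrestin that takes part in receptor turnover, read 4.79, 4.57, 4.54, 4.67 and 4.65 under saline and 6.18, 5.66, 6.06, 5.53 and 5.37 under Dex. Its saline group was narrow (SD 0.09), and the difference was 1.12 ± 0.22 (adjusted p = 0.131). Hif3a, a hypoxia-inducible factor subunit of which short forms restrain the others, lay between 3.42 and 4.37 under saline and between 4.72 and 5.91 under Dex (1.36 ± 0.283, adjusted p = 0.191). No other of the 14 hypoxia-inducible factor genes and no other of the 8 α-arrestins reached an unadjusted p under 0.05. Ddit4 (REDD1), an inhibitor of mTORC1, had Dex arrays 1 to 3 of 5.41, 5.46 and 5.43 above saline arrays of 4.06, 3.96 and 4.50. In replicates 4 and 5 Dex (4.68 and 4.63) and saline (4.66 and 4.71) coincided, and over both sets the difference was 0.75 ± 0.231 (adjusted p = 0.82).

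Beyond these lists, Dusp18, a dual-specificity phosphatase, differed by 0.92 ± 0.191 (adjusted p = 0.191) with saline arrays from 4.26 to 4.76 and Dex arrays from 4.84 to 5.98. Rab31, a small GTPase of vesicle traffic, differed by 0.76 ± 0.162, Fam214a by 0.69 ± 0.144 and Ccdc141 by 0.68 ± 0.143 (each adjusted p = 0.193), all without overlap. Tgfb3, a TGF-β ligand, lay between 5.63 and 6.05 under saline and between 6.45 and 6.87 under Dex (0.74 ± 0.162, adjusted p = 0.208). In its list of 24 TGF-β and BMP genes Tgfbr3 (-0.57 ± 0.218) and Bmp7 (-0.64 ± 0.291) stood on the lower side. Pim3, a kinase induced by cytokines, differed by 0.63 ± 0.186 and Il1r1, the interleukin 1 receptor, by 0.47 ± 0.203. Bdnf, a neurotrophin, differed by 0.39 ± 0.145 and Igf1 by -0.46 ± 0.188. None of these was significant.

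**Figure D2:**
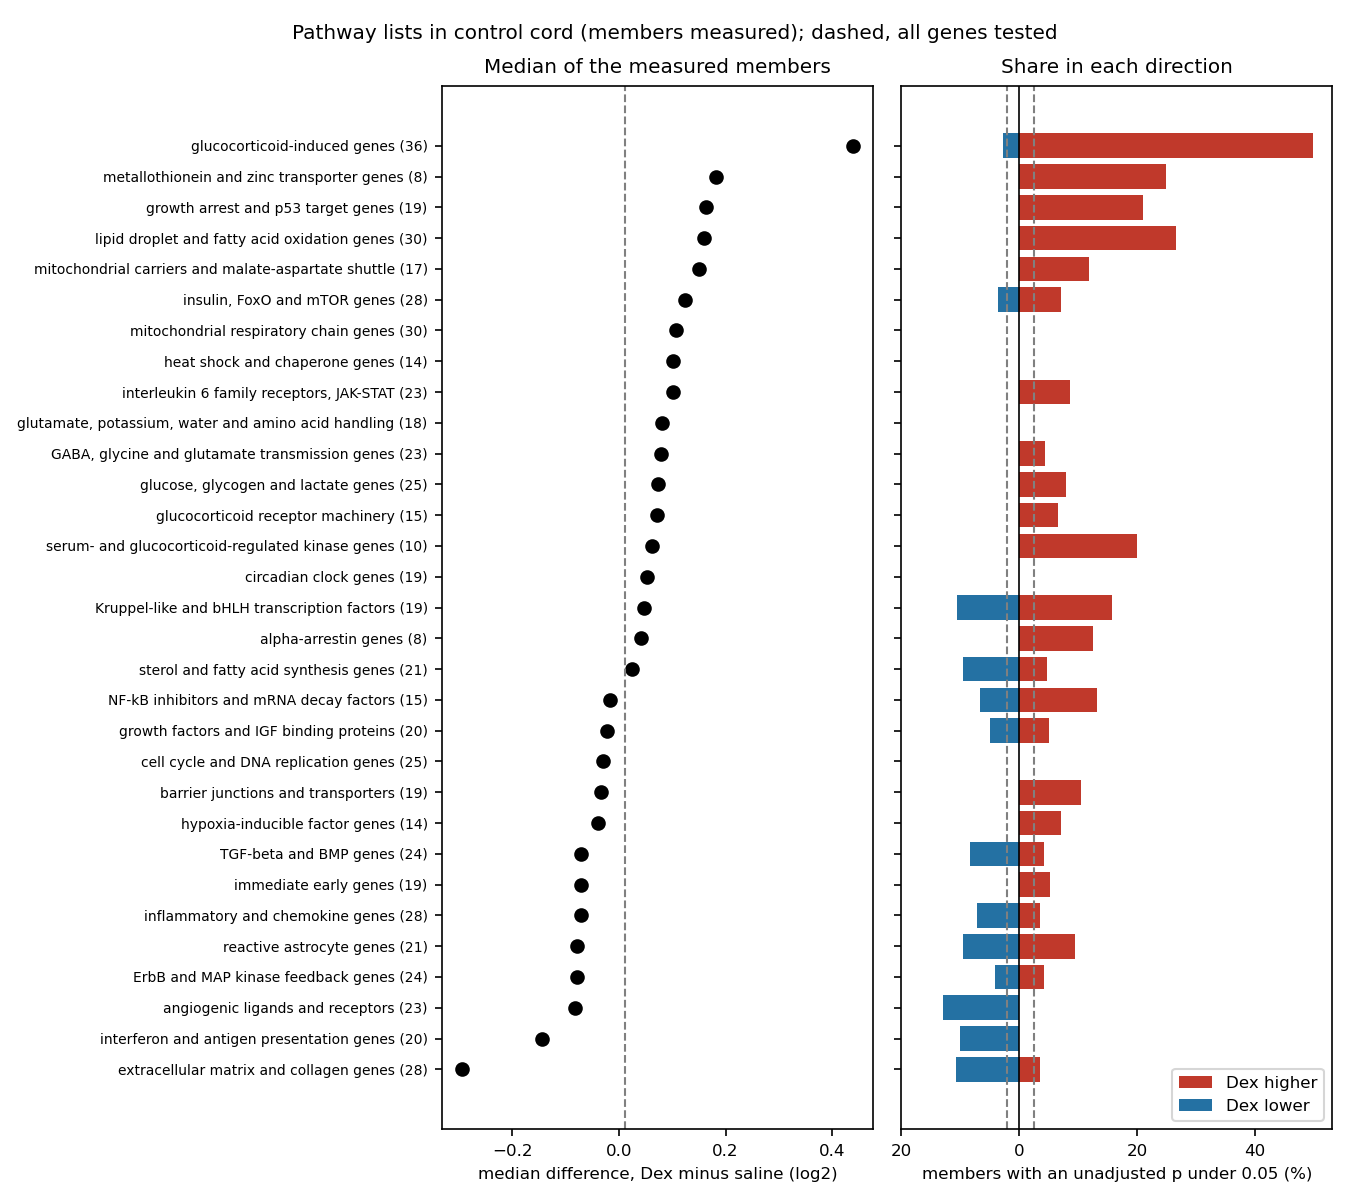
The 31 pathway lists by the median Dex minus saline difference of their measured members (left, log2) and by the share of members with an unadjusted p under 0.05 that were higher (red) or lower (blue) after Dex (right, %), with the number measured in brackets and dashed lines for all 22180 genes. Glucocorticoid-induced genes lie apart at a median of 0.44 and 50% higher, and extracellular matrix and collagen genes have the lowest median, -0.29. The lists were chosen with earlier results of these data known.

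No gene fell at an adjusted p under 0.05, and the lower genes are given as values. Aplnr, the apelin receptor of vessels and of neural precursors, read 4.48, 4.06, 4.37, 4.50 and 4.05 in saline arrays 1 to 5 and 3.17, 2.74, 3.78, 3.59 and 3.41 in Dex arrays. The groups did not overlap, with a difference of -0.95 ± 0.182 (adjusted p = 0.131). Kdr, the main VEGF receptor, also had no overlap, from 4.53 to 5.02 under saline and from 3.69 to 4.32 under Dex (-0.73 ± 0.275). Tek, the angiopoietin receptor, was lower in replicates 1 to 3 (-1.24, adjusted p = 0.0217 within that set) and not in replicates 4 and 5 (0.29). These were 3 of 23 angiogenic ligands and receptors (13%) lower at an unadjusted p under 0.05, against 2.03% of all genes, and 0 were higher.

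Fbxo32 encodes atrogin-1, a ubiquitin ligase that glucocorticoids induce in wasting muscle. In the cord it was lower after Dex: saline arrays 1 to 5 read 6.33, 6.59, 6.78, 6.81 and 5.79, and Dex arrays 5.75, 5.41, 5.33, 5.50 and 5.81. Only saline array 5 lay within the Dex range, and the difference was -0.90 ± 0.178 (adjusted p = 0.131). Within replicates 1 to 3 Fbxo32 passed at -1.07 ± 0.15 (adjusted p = 0.0155). Depp1, another FoxO target, stood on the opposite side at 0.82 ± 0.318 with overlapping arrays. In the 28 insulin, FoxO and mTOR genes 2 were higher at an unadjusted p under 0.05 (7.14%, against 2.47% of all genes). At that level 1 was lower (3.57%, against 2.03%).

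Mup3, a secreted lipocalin known from liver, had the most negative estimate among the 12 lower genes with the smallest p (-1.81 ± 0.357, adjusted p = 0.131). It ranged widely, from 3.69 to 6.40 under saline and from 2.68 to 3.94 under Dex, and its probes can share signal with other genes of this near-identical family. Ninj2, an adhesion molecule of glia, read 4.87 to 5.92 under saline and 4.27 to 4.80 under Dex (-0.88 ± 0.199, adjusted p = 0.259). Hpgd, the enzyme that inactivates prostaglandins, had narrow groups of 5.73 to 5.95 and 5.02 to 5.19 (-0.72 ± 0.178, adjusted p = 0.393). Pik3c2b, a class II PI3 kinase, differed by -0.70 ± 0.159, Mmp7, a matrix metalloproteinase, by -0.98 ± 0.238 and Emp1, a membrane protein of reactive astrocytes, by -0.80 ± 0.21, each without overlap.

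In the uninflamed cord no inflammatory, interferon or reactive astrocyte gene passed an adjusted p of 0.05. Of 28 inflammatory and chemokine genes 2 were lower at an unadjusted p under 0.05 (7.14%, against 2.03% of all genes). These were Cxcl9 (-0.68 ± 0.242) and Ccl3 (-0.75 ± 0.29). At that level 1 was higher (3.57%, against 2.47% of all genes), and 19 estimates were below 0. Of 20 interferon and antigen presentation genes Gbp3 (-0.50 ± 0.17) and Irf9 (-0.49 ± 0.201) were lower (10%) and 0 were higher. Among 21 reactive astrocyte genes 2 were higher (9.52%), Timp1 among them (0.68 ± 0.191), and 2 were lower (9.52%), Emp1 and S1pr3 (-0.64 ± 0.228). No heat shock or chaperone gene (14), respiratory chain gene (30) or gene of glutamate, potassium, water and amino acid handling (18) reached that level in either direction. Their medians were 0.10, 0.11 and 0.08. Glul, the glutamine synthetase of astrocytes, differed by 0.29 ± 0.157.

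Markers of meninges and of Schwann cells had estimates mostly below 0, with overlapping scores and no member past an adjusted p of 0.05. Fewer cells of a type and less RNA per cell cannot be told apart in whole tissue. Of 13 meningeal fibroblast markers 11 estimates were below 0, with a median of -0.41 (-0.63 in the first array set and -0.08 in the second). At an unadjusted p under 0.05, 4 were lower (30.8%, against 2.03% of all genes) and 0 were higher (2.47%). Ogn, a small proteoglycan of meninges and connective tissue, read 6.92, 8.03, 8.26, 8.67 and 8.40 under saline and 7.69, 6.48, 4.05, 5.21 and 5.40 under Dex (-2.29 ± 0.823, adjusted p = 0.958), while Slc22a6, an organic anion transporter of the same cells, differed by -0.77 ± 0.267. All 8 measured Schwann cell and root markers were below 0 over both sets, with a median of -0.77. In the first set the median was -0.81 with 0 above 0, and in the second -0.22 with 3 above 0. The 1 marker with an unadjusted p under 0.05 (12.5%, against 2.03% of all genes) was Pmp22, a peripheral myelin protein, at -0.93 ± 0.424.

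The mean deviation of the meningeal markers from their average ran from -0.16 to 0.67 in the saline arrays and from -0.82 to 0.19 in the Dex arrays. For the Schwann cell markers it ran from -0.12 to 1.15 under saline and from -1.06 to 0.45 under Dex. Saline array 3 was the highest and Dex array 3 the lowest for both lists. The extracellular matrix and collagen list had a median of -0.29 and 20 of 28 estimates below 0. At an unadjusted p under 0.05, 3 members were lower (10.7%, against 2.03% of all genes) and 1 was higher (3.57%, against 2.47%). Col6a1 (-0.96 ± 0.281) and Nid1 (-0.89 ± 0.279) were among the lower ones. The part of these cells in the matrix values, in Emp1 and in the other lower genes was not tested. Without both arrays of number 3 the differences of the called genes were 1.29 for Sgk3, 1.92 for Cdkn1a and 0.89 for Pnpla2, with 0 genes called by limma and 900 at an unadjusted p under 0.05. Aplnr was -1.05 and Fbxo32 -0.76 in that fit. There, 16 glucocorticoid-induced genes were higher at an unadjusted p under 0.05 (44.4%, against 2.23% of all genes).

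Other cell types had smaller median differences. Oligodendrocyte markers (14) had a median of 0.08, with Opalin, a myelin protein, at -0.78 ± 0.238. The array sets differed in sign, with a median of -0.10 and 2 estimates above 0 in the first and 0.27 and 10 in the second. Precursor markers (10) had a median of 0.17, with 8 estimates above 0. Olig2 (0.66 ± 0.227) and Neu4 (0.48 ± 0.168) were higher at an unadjusted p under 0.05 (20%, against 2.47% of all genes). The mean deviation of the precursor markers did not overlap between groups, from -0.123 to -0.015 under saline and from 0.019 to 0.158 under Dex. Other lists showed the same, among them growth arrest, lipid droplet, mitochondrial carrier and inflammatory genes. Single precursor markers ran from -0.52 to 0.66. The 20 astrocyte markers had a median of 0.10, none at an unadjusted p under 0.05, and Gjb6, which encodes connexin 30, differed by 0.21 ± 0.188. Of the 20 neuron markers 18 were above 0 (median 0.16), with Gad2, an enzyme of GABA synthesis, at 0.47 ± 0.215. Endothelial markers had a median of -0.06, mural cell markers -0.15 and microglia markers -0.07. For the 15 microglia markers the median was -0.185 in the first set (4 above 0) and 0.145 in the second (10 above 0). None of these genes was significant after adjustment.

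**Figure D3:**
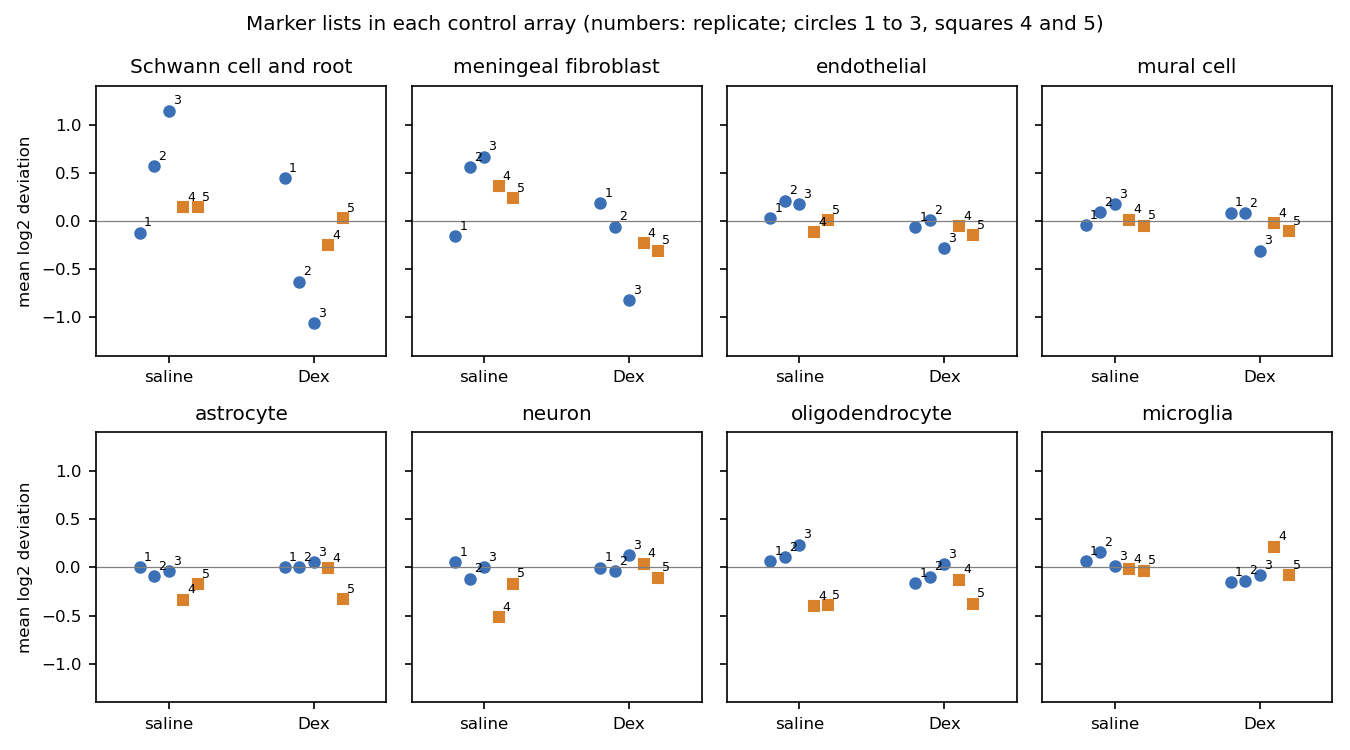
Mean log2 deviation (vertical axis) of 8 cell type marker lists in each saline and Dex array of control mice, with the replicate number beside each point. Schwann cell and meningeal markers spread most, from 1.15 and 0.67 in saline array 3 to -1.06 and -0.82 in Dex array 3, while astrocyte and neuron markers differ mainly by low values in single arrays of replicates 4 and 5.

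The array sets gave different counts of called genes, and they also differed in arrays a group (3 and 2) and in median residual SD (0.212 and 0.373). Within replicates 1 to 3, 38 genes passed an adjusted p of 0.05 (0.171%), 30 higher (0.135%) and 8 lower (0.0361%), whereas replicates 4 and 5 gave 0, with 1030 genes (4.64%) at an unadjusted p under 0.05. The 38 included all 3 genes called over both sets and 9 of the 36 glucocorticoid-induced genes, a list chosen with earlier results known. Of the 38, 28 had the same sign in replicates 4 and 5 and 34 were smaller there. Because the 38 were picked within replicates 1 to 3, smaller estimates in the other set follow in part from that choice. In the limma test of the difference between the sets, 23 of the 38 had an unadjusted p under 0.05, against 8.79% of all genes. None of the 38 had an adjusted one under 0.05. The 38 were picked for their difference in 1 of the 2 sets compared, so this count also follows in part from that choice. Setdb2, a histone H3K9 methyltransferase, read 4.81, 5.12 and 5.03 under saline and 7.11, 7.07 and 7.08 under Dex in replicates 1 to 3 (2.10 ± 0.215, adjusted p = 0.00582 within that set). In replicates 4 and 5 it read 5.16 and 6.50 under saline and 6.50 and 5.61 under Dex.

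Lower genes of replicates 1 to 3 included Trim59 (-1.39, adjusted p = 0.00976 within the set), a ubiquitin ligase, and Depdc7 (-1.37, adjusted p = 0.00976). Sox2, a transcription factor of glia and neural precursors, was among them at -0.78 (adjusted p = 0.0125), and its difference in replicates 4 and 5 was 1.69. Dclre1b, a nuclease of telomere ends, was higher in replicates 1 to 3 by 1.11 (adjusted p = 0.00976) and differed by 0.01 in replicates 4 and 5.

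Among the 36 glucocorticoid-induced genes the first set had a median difference of 0.61 and the second of 0.19. In the first set 35 estimates were above 0, in the second 23. For 26 members the first set gave the larger estimate, among them Plin4 (1.47 against 0.63), Map3k6 (1.06 against 0.13) and Ddit4 (1.26 against -0.03). Cdkn1a, Errfi1 (0.81 against 1.57) and Mt2 (0.54 against 0.83) went the other way, with the larger estimate in the second set. Fam107a (0.58 against -0.08) and Txnip (0.38 against -0.68), both with a promoter core, changed sign between sets.

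The difference between the sets was tested itself, with 1 residual spread taken for both sets although the second was noisier. At an unadjusted p under 0.05 it held for 15 of the 36 members (41.7%), against 8.79% of all genes, and at an adjusted p under 0.05 for 0 members and for 27 genes in all (0.122%), 14 of them negative. The smallest adjusted p was that of Sgta, a co-chaperone of steroid receptors and of tail-anchored proteins: saline arrays 4 and 5 (7.46 and 7.93) stood above Dex arrays 4 and 5 (5.53 and 5.27), while replicates 1 to 3 lay between 6.13 and 6.58 in both groups. Of the 27 genes 24 differed by less than 0.5 in replicates 1 to 3. Srebf2 was 0.04 in the first set and -1.49 in the second, and S100b, a calcium-binding protein of astrocytes, -0.17 and 1.48. What the array sets stand for was not given in the sources used here, and its part in these differences was not tested.

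**Figure D4:**
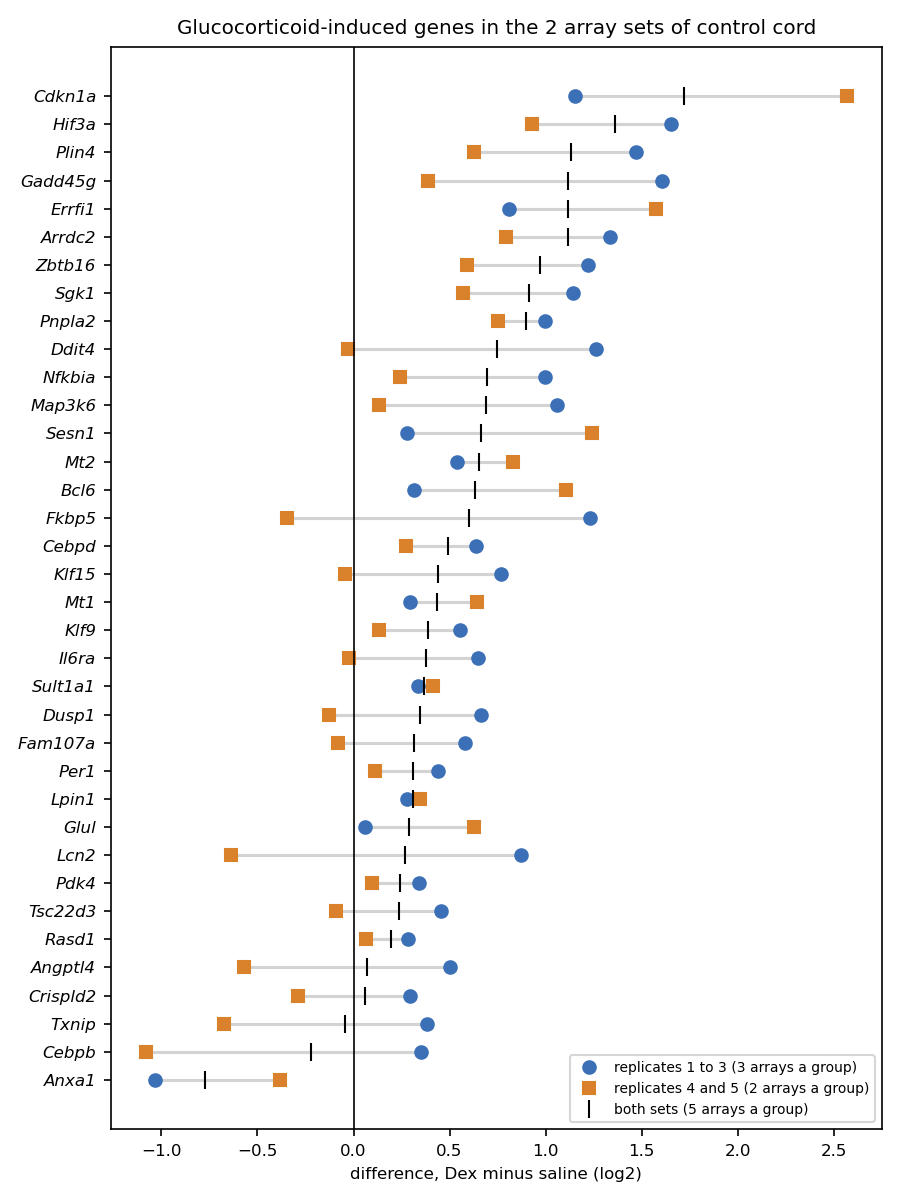
Dex minus saline difference (log2, horizontal axis) of the 36 glucocorticoid-induced genes in replicates 1 to 3 (blue circles, 3 arrays a group) and in replicates 4 and 5 (orange squares, 2 arrays a group), with a tick for both sets together. Of the 36 genes 26 have the larger value in replicates 1 to 3, and Fkbp5, Ddit4 and Txnip lie on opposite sides of 0 in the 2 sets.

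Against Cx30GRko cord, the control response was tested by the interaction of genotype and Dex. It was called for 0 of 22180 genes (0%; smallest limma adjusted p 0.923), with 1090 (4.91%) at an unadjusted p under 0.05. The genes called in control cord had Dex differences of 1.10 (Sgk3), 1.88 (Cdkn1a) and 0.62 (Pnpla2) in Cx30GRko cord. The median of the 36 glucocorticoid-induced genes was 0.44 in control and 0.64 in Cx30GRko cord. Among the lower genes Mup3 was -1.81 in control and 0.60 in Cx30GRko cord and Mmp7 -0.98 and 0.52, with unadjusted interaction p-values of 0.000105 and 0.000239 and adjusted p-values that did not pass. The interaction misses the threshold for every gene, which does not show that the genotypes respond alike.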

How the data were processed

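Members and gene lists were chosen with earlier results of these data known. RNA of 20 mouse spinal cords had been hybridised to Affymetrix whole-transcript arrays. The authors deposited 1 table of log2 probe set values, processed with oligo per the submitters' processing notes. Its version, the genome build and the normalization method are not given in the sources used here. All arrays had a mean of 4.64, and values were centred within 2 array sets. Of 41345 probe sets, 23521 had 1 gene symbol, 1814 several and 16010 none in the platform annotation. The brightest probe set stood for each of the 22180 genes (1082 had several), without a filter.

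Group means with the array set as block were fitted to all 20 arrays with limma 3.58.1 in R 4.3.3 (lmFit, eBayes; 15 residual and 5.77 prior degrees of freedom), which was tested on simulated data. P-values were two-sided and adjusted by Benjamini-Hochberg over all genes. The 31 pathway and 16 marker lists were described by counts and medians. Genes to be named were all called genes, the 12 with the smallest p in each direction, the 10 higher and 8 lower of replicates 1 to 3, up to 3 members of a pathway list and 2 of a marker list with the smallest p, the 5 smallest p of each interaction, and 15 fixed genes. Some genes that the rule names (Rdh1, Fut11, Aif1l, Pdzd7, Olfr1211 and Tcl1b3 among them) are not described. Map3k6, Fam107a and Txnip (promoter cores) were named outside this rule, after their values were seen. The number of arrays limits the precision. Alternatives included other blocks, array subsets, array weights, other normalizations and leaving out each control array.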

Additional observations from a re-analysis of the deposited data

Results flagged for a closer look

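In 16 of the 176 groups of 5 arrays examined for the 88 genes named (9.1%), 1 array stood apart from the other 4 by Dixon's test at the 95% level. Chance flags about 1 in 20 groups. Among the genes that passed the test, Pnpla2 in saline array 5 was 6.06, against 5.77 to 5.84 in the others, on the side of the Dex group. Errfi1 and Bcl6 were low in the same array (5.99 against 7.00 to 7.22, and 4.73 against 5.87 to 6.00), and Setdb2 was high there (6.50 against 4.81 to 5.15). Dex array 5 was low for Slc25a13 (5.06 against 6.00 to 6.25), for Slc2a1 (7.93 against 8.54 to 8.74) and for Fam107a (8.22 against 8.74 to 8.86).

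Dex array 4 was low for Fam214a (7.02 against 7.50 to 7.60) and Ccl3 (2.71 against 3.19 to 3.36) and high for Ccng1 (8.80 against 8.17 to 8.33) and Glul (9.55 against 9.38 to 9.42). Saline array 4 was high for Col6a1 (7.34 against 5.89 to 6.25) and Neu4 (4.19 against 3.49 to 3.60) and low for Sox2 (5.72 against 7.39 to 7.53) and Irf9 (5.34 against 5.79 to 5.93). Gjb6 in saline array 2, at 6.46 against 6.15 to 6.24, was the one of the 16 that lay outside replicates 4 and 5.

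For 5 genes named in the text, the Dex difference passed the test of a difference between the 2 array sets. Given as replicates 4 and 5 minus replicates 1 to 3, it was -2.49 for Sgta (adjusted p = 0.00647), 2.48 for Mzb1 (0.00857), -1.83 for Bcdin3d (0.0313), -1.53 for Srebf2 (0.0348) and 1.65 for S100b (0.0424). In each of these genes the difference lay mainly in replicates 4 and 5, with 2 arrays a group. The genes were picked by that test, so a large difference in at least 1 set follows from the choice.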

How the results depend on the processing

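The count of 3 called genes became 0 from the 10 control arrays alone, with all probe sets kept, in replicates 4 and 5 only and at an adjusted p under 0.01. It became 38 in replicates 1 to 3 only and 59 with array quality weights, and ran from 0 to 3 when single control arrays were left out. With 2 alternatives chosen after seeing the data, it was 0 without both arrays of number 3 in the control groups and 5 without the 4th and 5th Cx30GRko Dex arrays (with Ccng1 and Errfi1). The 27 genes that differed between the array sets became 3 from the control arrays alone, 41 with dim probe sets left out and 14 with the replicate block. The fit with the replicate number as a block called 0 genes for the Dex effect. Same-numbered deviations of saline and Dex arrays correlated between -0.05 and 0.06. Replicates 1 and 3 each matched the other number best, and replicates 2, 4 and 5 matched their own. Replicates 4 and 5 hold only 1 comparison, because 2 centred arrays mirror each other. With so few arrays a set, these values cannot show whether the numbers pair the samples.

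In replicates 4 and 5 alone the sign turned for Ddit4 (-0.03), Fkbp5 (-0.34), Tsc22d3 (-0.091), Dusp1 (-0.13), Fam107a (-0.082), Depp1 (-0.088), Tek (0.29) and Depdc7 (0.14). In replicates 1 to 3 alone it turned for Srebf2 (0.041), Sgta (0.20), Mzb1 (-0.33), Bcdin3d (0.045), S100b (-0.17), Sox2 (-0.78), Txnip (0.38) and Nr3c1 (-0.30). Array weights turned Sox2 (-0.40), Txnip (0.24) and Nr3c1 (-0.19). Leaving out single arrays gave -0.17 to 0.38 for Sox2, -0.20 to 0.19 for Txnip and -0.21 to 0.11 for Nr3c1, all 3 near 0. The causes were not tested. Of the 880 differences from leaving out single arrays, 845 kept direction and side of the threshold. The median of the glucocorticoid-induced genes stayed between 0.19 and 0.61 over 23 alternatives.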
